A study of Mus musculus with 2 samples.

Results

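The insulin-like growth factor (IGF) system of mouse primary chondrocytes was described here through 10 genes, taken as the ligands Igf1 and Igf2, the receptors Igf1r and Igf2r, and the binding proteins Igfbp2 to Igfbp7. They were chosen by name, and with earlier results of these data known, from 20660 genes that could be named on the arrays. All 10 were among the 14231 genes detected on both arrays. Igfbp1, which was not taken as a member, was not detected on either array. Detected means that the probe was well above background by the scanner software on each array. Chondrocytes, the cells of cartilage, came from C57BL/6J mice at an age of 6 days and were cultured for 48 h on fibronectin-coated stretchable silicon chambers. RNA was taken before loading in one group, and in the other 24 h after 30 min of cyclic tensile strain of 10% elongation at 0.5 Hz, with 1 array per group. The labels name no added agent and no altered allele for either group. The methods describe culture in DMEM with serum and, for most experiments, a change to medium without serum before a stimulus. Whether serum was present in the array cultures, and how many mice each RNA came from, is not given in the sources used here.

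With 1 array per time point there was no replicate, so no difference below was tested and none has a p-value. The later sample also spent 24 h longer in culture, and strain and culture time cannot be told apart in these arrays. All 10 chondrocyte markers were detected, at intensities from 5050 to 499543, and so were all 6 fibroblast markers. Other cell types gave mixed signals. Of the 5 osteoblast markers, Sp7 and Phex were detected, Dmp1 and Ifitm5 were not well above background, and Bglap had no matched probe. Of the 6 skeletal muscle markers, Acta1, Myh3 and Myog were detected and Myod1, Des and Ckm were not. Of the 5 endothelial markers, Kdr and Pecam1 were detected and Cdh5, Tek and Emcn were not. The call of Kdr rests on its brightest probe (12774 and 12375). Its other probe, printed at 9 spots, read 5.05 and 5.63 and was not well above background. Of the 6 macrophage markers, 5 were detected and Cd68 had no matched probe. By brightest probes, their summed intensity of 4198 before and 4024 after loading came mostly from Csf1r (3646 and 3288). The log2 ratios of the other 4 were above 0 by brightest probes. Csf1r had -0.15 by its brightest probe and 0.20 and 0.27 by its dimmer probes, and the dimmer Adgre1 probe had -0.08.

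IGF-1 and IGF-2 are secreted growth factors that drive proliferation and matrix synthesis in cartilage. They signal through the IGF-1 receptor, a tyrosine kinase, while the IGF-2 receptor, which also binds enzymes tagged with mannose phosphate, takes up IGF-2 for degradation. The binding proteins hold IGFs in the extracellular space and can block or favour their access to the receptor, and proteases that cut the binding proteins release the ligand.

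By the brightest probe of each gene, 3 of the binding proteins stood apart from the rest of the system. Igfbp4, Igfbp5 and Igfbp2 had higher intensity 24 h after loading, by 1.91-fold, 1.89-fold and 1.68-fold. By their brightest probes, the ligands, both receptors and the other binding proteins lay within 1.5-fold, but a dimmer Igf1 probe was 1.80-fold higher. No member passed 2-fold, the threshold of the study. Among all detected genes, 2.49% passed 2-fold, 0.668% higher and 1.83% lower. At 1.5-fold, 3 of the 10 members were higher and 0 were lower, against 3.65% of detected genes higher, 5.84% lower and 9.49% in either direction. Since the members were chosen with earlier results known, these shares are a description and no test. In bulk RNA, a different share of cells of a type and a different amount of RNA per cell cannot be told apart. The plot of intensities before and after loading shows the separation of these 3 genes from the other members.

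**Figure D1:**
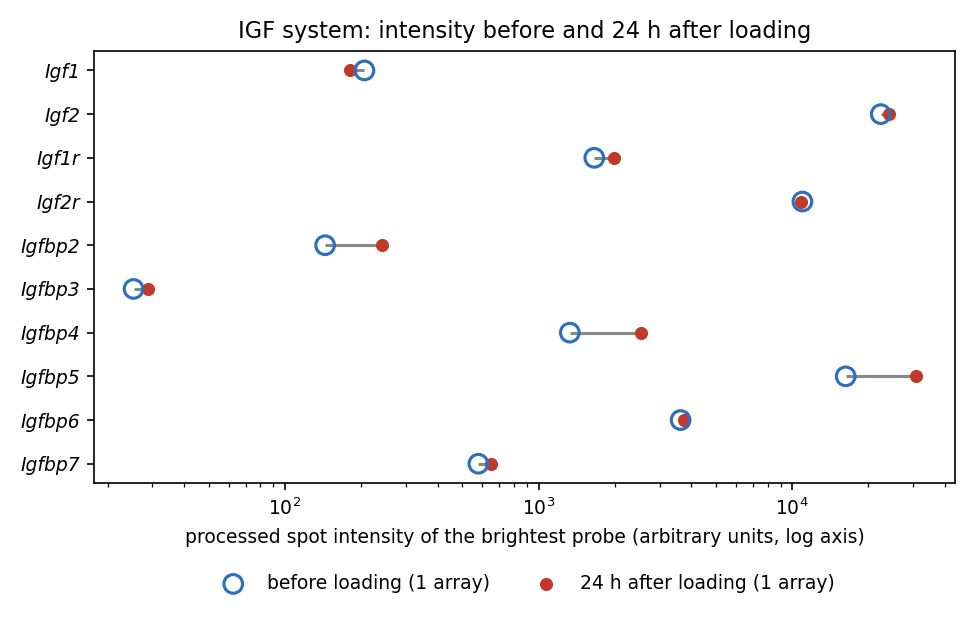
Processed spot intensity of the brightest probe of each of the 10 genes (log axis, arbitrary units), with open circles before loading and filled circles 24 h after, 1 array each. The circles of Igfbp2, Igfbp4 and Igfbp5 are clearly apart (144 and 241, 1328 and 2537, 16270 and 30709), and those of Igfbp6 and Igf2r nearly coincide.

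The DNA in front of these 3 genes is shown because they moved in the same direction. The sequences are the 250 bases before the annotated start in RefSeq (GRCm38.p6), read 5′ to 3′ on the gene's strand. The capitals mark matches on either strand to the letters TATAAA of the TATA box, to CCAAT of the box named after it, to GGGCGG of the GC box or to TGACTCA of the AP-1 site. The windows are Igfbp4 at chr11:99040994-99041243 (plus strand), Igfbp5 at chr1:72874866-72875115 (minus strand) and the upstream start of Igfbp2 at chr1:72824230-72824479 (plus strand).
Igfbp4: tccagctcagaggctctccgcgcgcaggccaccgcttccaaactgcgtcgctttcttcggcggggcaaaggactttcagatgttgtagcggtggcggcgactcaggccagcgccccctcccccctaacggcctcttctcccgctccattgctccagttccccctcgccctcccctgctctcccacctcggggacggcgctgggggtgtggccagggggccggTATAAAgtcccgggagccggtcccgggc
Igfbp5: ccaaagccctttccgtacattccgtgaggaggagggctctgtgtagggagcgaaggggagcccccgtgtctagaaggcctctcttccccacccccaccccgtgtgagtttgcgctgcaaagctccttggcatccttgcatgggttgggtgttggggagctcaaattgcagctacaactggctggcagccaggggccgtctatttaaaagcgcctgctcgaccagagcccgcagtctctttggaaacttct
Igfbp2: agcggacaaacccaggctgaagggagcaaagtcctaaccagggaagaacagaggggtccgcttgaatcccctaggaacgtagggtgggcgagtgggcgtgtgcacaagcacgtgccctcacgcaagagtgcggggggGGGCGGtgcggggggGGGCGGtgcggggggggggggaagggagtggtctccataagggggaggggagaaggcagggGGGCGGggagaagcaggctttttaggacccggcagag

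By exact letters, the 3 windows had none of these 4 motifs in common, and no other motif was searched for. That of Igfbp4 held 1 TATA box, a sequence found in 12.4% of the 32851 promoters in the table. That of Igfbp2 held 3 GC boxes, and 16.7% of all promoters had 2 or more. The windows of Igf2r and Igfbp7, which lay within 1.5-fold, held 3 and 4. The window of Igfbp5 matched none of the 4 motifs. A second Igfbp2 start, at chr1:72825137-72825386, had 1 AP-1 site, which 4.46% of promoters held. G and C made up 69.2% of the Igfbp4 window, 67.2% of the Igfbp2 window and 58.8% of the Igfbp5 window, and the median over all promoters was 52.4%. The second Igfbp2 start had 56.4%. Over all promoter entries of the members the share ran from 47.6% (an Igf2 start) to 77.6% (Igf1r), so a high share was not particular to the 3 genes. Over the 14 promoter entries of the 10 members, 6 had a GC box (32.7% of all promoters), 3 a CCAAT box (33.8%) and 2 a TATA box. A match of letters is a description of the window and not a bound site. In the genome order of the same assembly, Igfbp2 and Igfbp5 are neighbouring genes on chromosome 1, whereas Igfbp4 lies on chromosome 11 between Top2a and Tns4.

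Igfbp4 (NM_010517) encodes a binding protein known mainly as an inhibitor of IGF action. Its single probe read 1328 before loading and 2537 afterwards. The log2 ratio was 0.93 ± 0.20. Log2 ratios are given as 24 h after minus before loading, with each array scaled to its own 75th percentile. The error combines the scanner software's error of the spots on both arrays and covers within-array error only. This error was almost the same for bright probes (0.204 for Igfbp4, Igfbp5 and Igf2), so exceeding it is there a nearly fixed cut. Measured between spots of the same probe, the median SD of the log2 ratio was 0.11, over probes with at least 8 spots. A log2 ratio at least as high as that of Igfbp4 was found in 0.815% of detected genes. Within 100 µm of the spot lay 18 detected spots, 0 of them higher and 2 lower by more than 2-fold, with a median log2 ratio of 0.01.

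Igfbp5 (NM_010518) encodes a binding protein that attaches to extracellular matrix. The intensity of its single probe was 16270 before and 30709 after loading, a log2 ratio of 0.92 ± 0.20, and 0.857% of detected genes had a ratio as high. Of 16 detected spots around it, 1 was higher and 0 were lower by more than 2-fold, and their median log2 ratio was -0.12. The values of Igfbp4 and Igfbp5 differed by less than the within-array error. Both lay just below 2-fold under the scaling used and just above it when arrays were scaled to the median of all probes (log2 ratios of 1.03 and 1.01) or to spiked-in control RNA (1.05 and 1.04).

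Igfbp2 (NM_008342) encodes a binding protein with a preference for IGF-2. It was the third member past 1.5-fold, and it was measured by 2 probes. The brighter probe had 144 before and 241 after loading, a log2 ratio of 0.74 ± 0.21, and the other had 123 and 192, a log2 ratio of 0.64 ± 0.21. The probes thus gave the same direction and differed by less than the error of either. Around these 2 spots lay 14 and 16 detected spots, 0 of them past 2-fold. Igfbp2 lost its place past 1.5-fold when background was estimated with a convolution model, with a log2 ratio of 0.49.

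The other binding proteins lay within the within-array error under the scaling used. Igfbp3 (NM_008343), the main carrier of IGFs in serum, was the dimmest member, with 25.3 before and 28.7 after, close to the lowest intensity called well above background (17.3 and 17.8). Its log2 ratio of 0.19 had an error of 0.37, so that a change as large as that of Igfbp2 lies within 2 errors of this value. Igfbp6 (NM_008344), which binds IGF-2 with high preference, had 3633 and 3739, a log2 ratio of 0.04 ± 0.20. Igfbp7 (NM_001159518), a relative with low affinity for IGFs, had 579 and 649, a log2 ratio of 0.16 ± 0.20, and passed that error with median scaling (0.26) and spike-in scaling (0.28). The median log2 ratio over the 6 binding proteins was 0.47, beside 0.05 over the 4 ligands and receptors and -0.01 over all detected genes. Of the 6, 3 had 0.04 to 0.19 and 3 had 0.74 to 0.93, so the median of 0.47 falls in the gap and describes none of them.

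**Figure D2:**
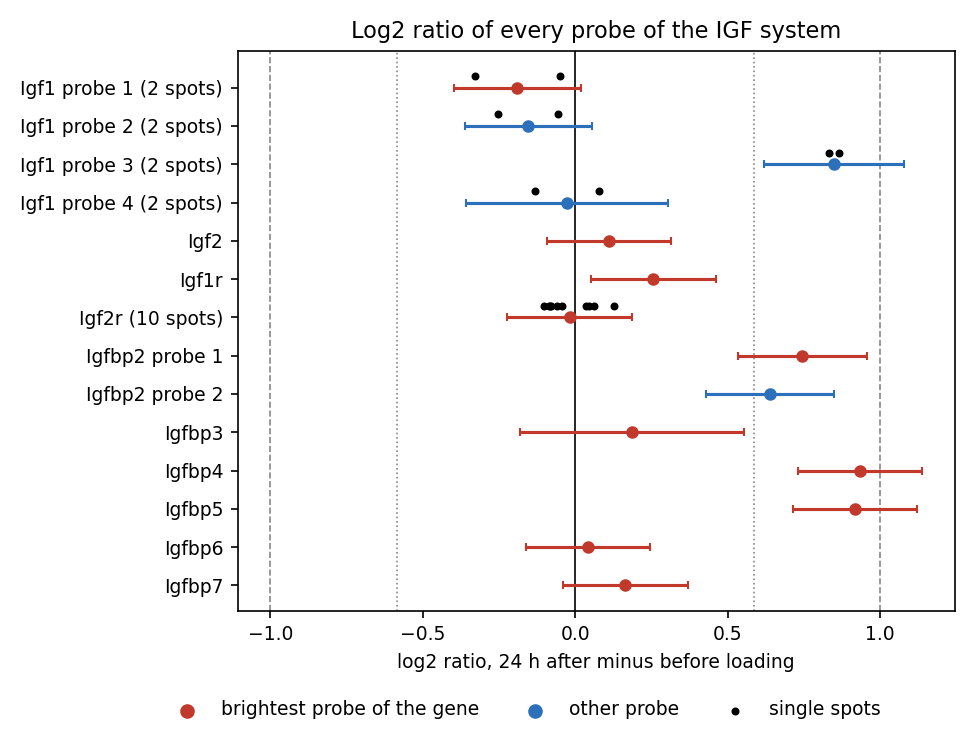
Log2 ratio, 24 h after minus before loading, of all 14 probes of the 10 genes, with bars for the within-array error, small black points for single spots of probes printed more than once, and dotted and dashed lines at 1.5-fold and 2-fold. Igfbp4, Igfbp5 and both Igfbp2 probes lie past 1.5-fold, and of the 4 Igf1 probes the third (0.85) lies apart from the others (-0.19, -0.15 and -0.03).

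Igf1 (NM_010512) was the member with the least uniform measurement. It was covered by 4 probes, each printed at 2 spots. The brightest had intensities of 221 and 192 before loading and 176 and 185 after, a log2 ratio of -0.19 ± 0.21. A second probe of nearly the same brightness had a log2 ratio of -0.15 ± 0.21, and the dimmest, at 30.7 and 30.1, had -0.03 ± 0.33. The remaining probe stood apart. Its spots had 67.9 and 62.0 before loading and 121 and 113 after, which gave spot ratios of 0.83 and 0.87 and a mean of 0.85 ± 0.23 (1.80-fold). Both of its spots thus showed the difference, at separate places on the array. All 4 probes carried the same transcript accession, and the files hold no probe sequences, so the stretch of the Igf1 transcript that each probe reads was not analysed here. The sign of the gene's ratio depends on this probe: the mean over the 4 probes was 0.12, against -0.19 for the brightest.

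Igf2 (NM_010514), the fetal growth factor and an imprinted gene, had 22376 before and 24162 after loading, a log2 ratio of 0.11 ± 0.20. By their brightest probes both ligands lay within the within-array error, but Igf2 passed it with median scaling (0.21) and spike-in scaling (0.23). The antisense transcript of the same locus, Igf2os, had 2582 and 2591, a log2 ratio of 0.01.

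Igf1r (NM_010513), the signalling receptor, had 1659 before and 1981 after loading. Its log2 ratio of 0.26 ± 0.20 exceeded the within-array error but not 1.5-fold, and 16.5% of detected genes had a ratio as high. Igf2r (NM_010515), the clearance receptor, was the best measured member because its probe was printed at 10 spots. These had 9595 to 11806 before and 10057 to 11464 after, so the ranges overlapped. The mean log2 ratio was -0.02, with an SD of 0.08 between the spots, whose ratios ran from -0.10 to 0.13. The sign of this value turned under other scalings, up to 0.10 with spiked-in RNA. Spots of one probe share the array and the RNA, so this SD is technical. For Airn, the non-coding RNA antisense to Igf2r, which was picked out after its values were seen, the brighter of 2 probes had a log2 ratio of -0.15 and the other -0.63.

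**Figure D3:**
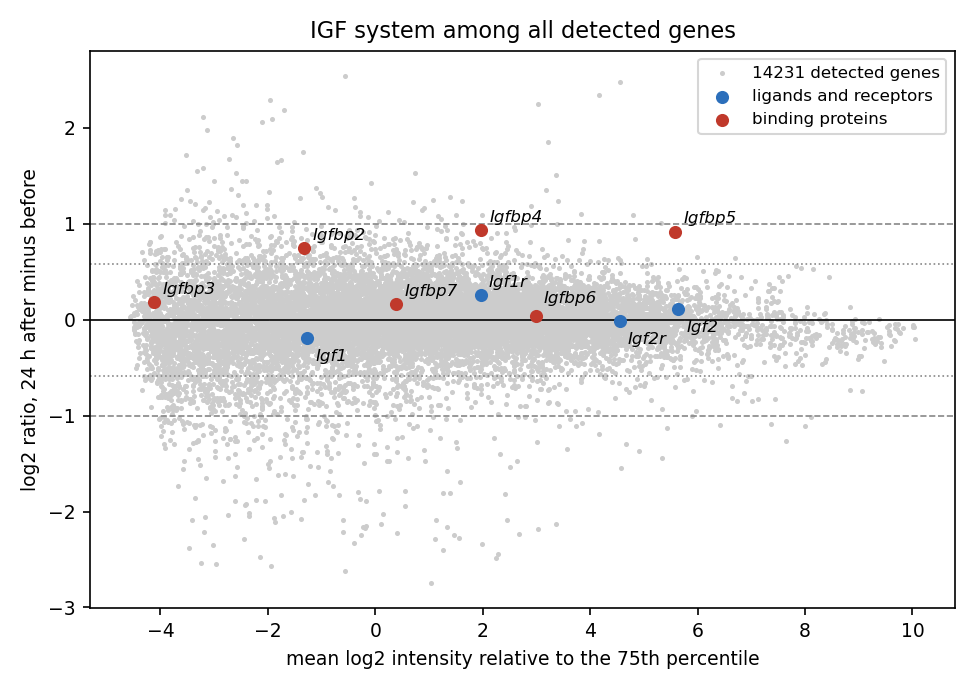
Log2 ratio (24 h after minus before loading) against the mean log2 intensity relative to the 75th percentile, for 14231 detected genes in grey, with ligands and receptors in blue and binding proteins in red. Dotted and dashed lines mark 1.5-fold and 2-fold. Igfbp4 and Igfbp5 lie just below the upper 2-fold line, and Igfbp3 at the dim end of the plot.

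Of the 10 members, 8 had a log2 ratio above 0, as did 47.6% of detected genes, and 4 exceeded their within-array error, as did 42.8% of detected genes. With median or spike-in scaling, 6 members exceeded it, Igf2 and Igfbp7 being added. The sign changed with the processing for Igf1 and Igf2r, which were the 2 members below 0. The median over the members was 0.18. By intensity, 7 members lay above the 75th percentile of the arrays and 3 (Igf1, Igfbp2 and Igfbp3) below it. Intensities of different probes depend on their affinity, and no order of the genes by amount of RNA was drawn from them.

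In the wider pathway, 61 of 66 listed genes were detected. Only Stc1 was higher and only Stc2 lower by more than 2-fold, which is 3.28% of the 61 and close to the 2.49% of all detected genes. Both encode stanniocalcins, secreted inhibitors of the pappalysin proteases that cut IGFBP-4 and IGFBP-5. Stc1 had 45.1 before and 116 after loading, a log2 ratio of 1.37 ± 0.24. Stc2 had 4578 and 2274, a log2 ratio of -1.01 ± 0.20. The 2 inhibitors thus differed in opposite directions. Stc1 fell short of 2-fold with the convolution background model (log2 ratio 0.74), and the call of Stc2 was lost under 5 of the other scalings or background corrections, where its log2 ratio came out closer to 0, up to -0.89. Of the proteases themselves, chosen after the values were seen, Pappa had 2351 and 2423 (log2 ratio 0.04). Pappa2 had 88.3 and 101 by its brightest probe (0.20). Htra1, which cuts IGFBP-5, had 15536 and 16796 (0.11), and Adam9 had a log2 ratio of -0.05. Ctsd, a lysosomal protease, had log2 ratios of 0.41 and 0.56 by its 2 probes, and Adam12, a metalloprotease that cuts IGFBP-3 and IGFBP-5, had -0.26. Klk1 was not well above background. The median of the 8 detected genes of this list was 0.08.

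Among 22 detected genes of receptor signalling, 1 was higher and 2 were lower by more than 1.5-fold, with a median log2 ratio of 0.08, against 3.65% higher and 5.84% lower among all detected genes. Grb10, an adaptor that binds the receptors and restrains their signalling, had 3553 before and 2221 after loading, a log2 ratio of -0.68 ± 0.20. Sos1, an exchange factor for Ras, was dim at 39.0 and 23.6, with a log2 ratio of -0.72 and an error of 0.39. For Insr, the insulin receptor, the brightest of 3 probes had 162 and 246 (log2 ratio 0.60), but the others had 0.14 and -0.02. Pik3r2, a regulatory subunit of PI3-kinase, had a log2 ratio of 0.55. Insrr, a receptor relative, was above background before loading only, at 24.6. The main docking protein Irs1 and the kinase Akt1, named here for their place in the pathway after the values were seen, had log2 ratios of 0.24 and 0.17.

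Further downstream, all 16 genes of the mTOR and FOXO branch lay within 1.5-fold, with a median of -0.02. The extremes were Sesn1 (0.35) and Gsk3b (0.31 by its brightest probe), and at the lower end Ddit4 (-0.39), a stress-induced inhibitor of mTORC1, and Tsc1 (-0.29). The growth hormone axis, which drives Igf1 transcription in liver and acts on the growth plate, had a median of 0.12 over 9 genes. Cish, a feedback inhibitor of the growth hormone receptor, was the one gene of these 9 past 1.5-fold (9.49% of all detected genes), with 57.8 before and 88.5 after and a log2 ratio of 0.62 ± 0.24. Ghr, the receptor, had 0.35 for one transcript and -0.23 for another (NM_001048178), and Socs3 and Socs1 had -0.22 and -0.17.

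**Figure D4:**
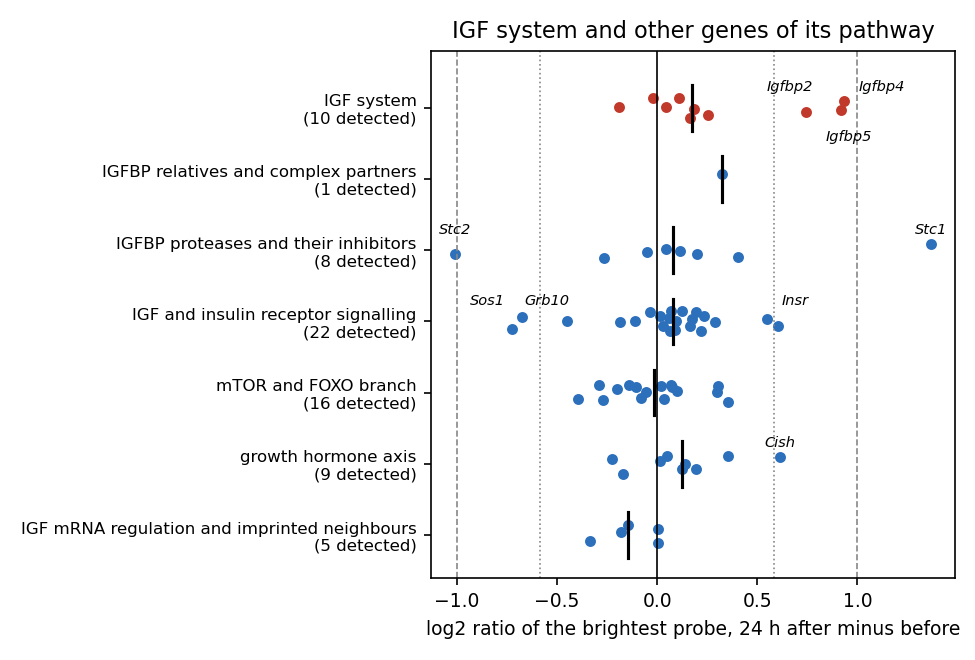
Log2 ratio of the brightest probe (24 h after minus before loading) of each detected gene, by list, with a vertical bar at the median of the list, dotted lines at 1.5-fold and dashed lines at 2-fold. Genes past 1.5-fold are named: Igfbp2, Igfbp4 and Igfbp5 in the IGF system, and Stc1, Stc2, Sos1, Grb10, Insr and Cish in the other lists.

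The other partners were few. Igfals, which joins IGF and a binding protein into the circulating complex, had 57.3 and 71.8, a log2 ratio of 0.33 ± 0.25. Igfbp1 and Igfbpl1, a liver binding protein and a binding-protein relative, were on both arrays not well above background. Of the genes that bind IGF mRNA or lie in imprinted clusters with the members, 5 were detected with a median of -0.15, among them Igf2bp1 (-0.34 ± 0.33), Igf2bp2 (-0.18) and Igf2bp3 (0.00), and no probe was matched to H19. Over the whole pathway 3 genes were higher and 3 lower by more than 1.5-fold, and 55 of 61 lay within it. The share past 1.5-fold was 9.84%, near the 9.49% of all detected genes.

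Some markers of cell state also differed between the arrays. With 1 array per time point, a shared pattern with the 3 binding proteins cannot be assessed. The summed intensity of 6 hypertrophic chondrocyte markers, all detected, was 24559 before and 10502 after loading. Col10a1, Ihh and Ibsp were lower by more than 2-fold (log2 ratios of -1.54, -1.30 and -2.06), as were 1.83% of all detected genes. Most of the sum was Col10a1 (18910 and 6485). Of the same list, Alpl and Spp1 had log2 ratios of -0.89 and -0.48, and Mmp13 had 0.49 ± 0.20 (617 and 867). Of 5 adipocyte markers, 3 were detected, with a summed intensity of 862 and 1829. Adipoq, Plin1 and Fabp4 had log2 ratios of 2.29, 1.01 and 0.95, while Lep and Cidec were not well above background. Of all detected genes, 0.668% were higher by more than 2-fold. The 6 fibroblast markers lay within 1.5-fold, with sums of 214335 and 217320. Of the 10 chondrocyte markers, 9 lay within 1.5-fold. The remaining one, Col11a1, was lower (107657 and 60799, log2 ratio -0.82), as were 5.84% of all detected genes at this threshold. Ptprc, a leukocyte marker, was dim and had a log2 ratio of 1.14 (20.9 and 46.1). Past 1.5-fold in the osteoblast and muscle lists were Sp7 (-0.64) and Myh3 (0.64, and 0.41 by its dimmer probe). The other detected genes of these lists lay within 1.5-fold. The part of these cell populations in the values of Igfbp2, Igfbp4 and Igfbp5 was not tested.

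**Figure D5:**
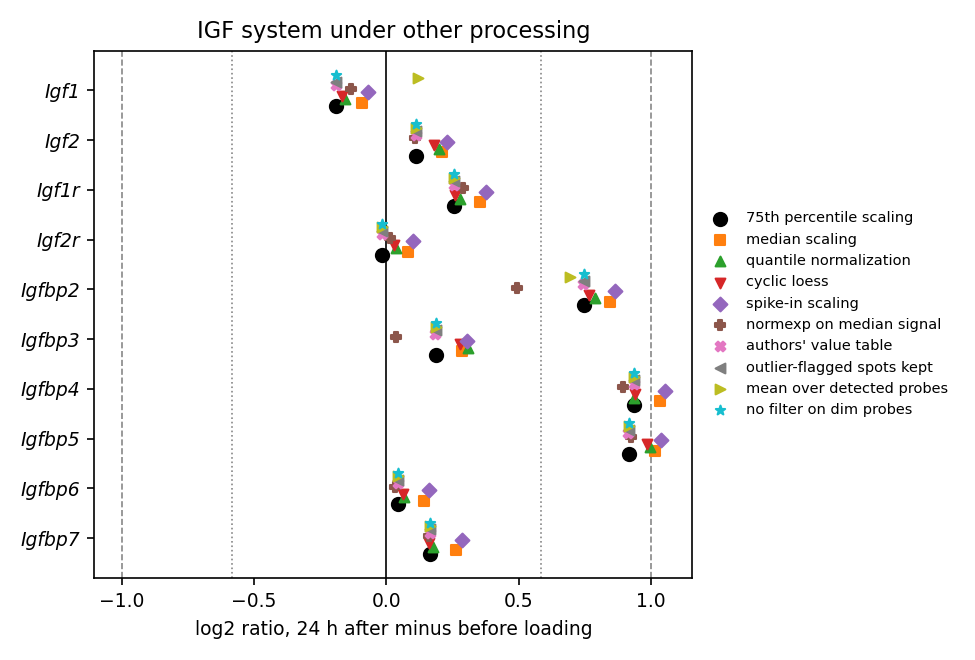
Log2 ratio of each of the 10 genes (24 h after minus before loading) under the scaling used (black) and 9 other ways of processing, with dotted lines at 1.5-fold and dashed lines at 2-fold. Igfbp4 and Igfbp5 lie past 1.5-fold throughout and straddle the 2-fold line, and Igf1 and Igf2r fall on both sides of 0.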

How the data were processed

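RNA of mouse primary chondrocytes was hybridised to 2 one-colour Agilent mouse arrays on 1 slide, 1 before loading and 1 at 24 h after it. The authors deposited spot intensities from the software Feature Extraction 10.10.1.1, background-subtracted and with no normalization between arrays, and a table of the same intensity values rounded to 3 significant digits (largest difference 0.497%, column medians 35.4 and 32.9). Spots flagged as outliers (141 and 138) were left out, and log2 values were averaged over the spots of each of 55678 probes. The 75th percentile of each array (466.4 and 466.2) was subtracted. Well above background were 59.1% and 57.7% of spots, and 0 were saturated. Accessions were named through a RefSeq table of GRCm38.p6, used for names and gene order, which matched 27235 probes. The brightest probe stands for a gene.

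With 1 array per time point no test was possible, and precision is limited by the number of arrays. Counts past 2-fold and 1.5-fold are given beside the same counts over all detected genes. The genes named are all members, and from each pathway list those past 2-fold and the 2 highest and 2 lowest, besides the markers. Genes outside this rule are listed as such, or are those not detected. The members and lists were chosen with earlier results of these data known. A planned order of members by intensity was left out, since probes differ in affinity. Alternatives were other scalings, background correction, probe averaging and filters. Python 3.11.15, pandas 2.3.3 and limma 3.58.1 were used, and the scripts were tested on simulated data.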

Additional observations from a re-analysis of the deposited data

How the results depend on the processing

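Each member was recomputed under 9 alternatives. Of the 90 values, 88 moved by no more than the within-array error. The exceptions were Igfbp2 with normexp background correction (0.49) and Igf1 as the mean over its probes (0.12). Igfbp4 and Igfbp5 were past 1.5-fold in 10 of 10 settings, the reported one included, and Igfbp2 in 9. Some settings could hardly move a member, so these counts and the 88 of 90 are no measure of stability. Dropping the filter on dim probes left every member value unchanged, and averaging over probes can change only members with several probes. The authors' value table and the kept outlier spots gave nearly the same values. The number of members past 2-fold, 0 as reported, was 2 (Igfbp4 and Igfbp5) when arrays were scaled to the median, 2 with spike-in scaling, and 3 members passed a threshold of 1.5-fold. The number of pathway genes past 2-fold, 2 as reported, was 1 with median, quantile, cyclic loess or spike-in scaling, 0 with normexp, 4 without the filter on dim probes, which adds Klk1 and Insrr, and 6 at 1.5-fold. Stc1 had 0.74 with normexp. The causes were not tested, beyond what each setting changes by construction.

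Spike-in scaling moved the median of all detected genes by 0.12 on the log2 scale, and relative to its median of 0.10 the order of the members is the same as reported, since a scaling shifts all genes alike. Of the detected genes past 2-fold, 26.8% were higher under the scaling used, 38.8% under median scaling and 43.1% under spike-in scaling. At 1.5-fold these shares were 38.5%, 56.7% and 60.8%, and the share of detected genes higher by 1.5-fold was 3.65%, 5.64% and 6.20%. No paired analysis was possible because each time point has 1 array. Dim members (Igfbp3 and the dimmest Igf1 probe) are limited by their signal over background.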
